A study of Mus musculus with 8 samples.

Results

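Mertk, Axl, Tyro3, Gas6, Pros1, Mfge8, Itgb5 and Elmo1 encode receptors, bridging proteins and an engulfment factor by which macrophages take up dying cells. They were chosen by symbol. All 8 were among the 24421 gene symbols counted in every library, and all 8 passed the filter on low counts that left 13821 genes for testing.

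Efferocytosis is the clearance of apoptotic cells by phagocytes. A dying cell exposes phosphatidylserine on its outer membrane, and bridging proteins link that lipid to receptors on the phagocyte. Tyro3, Axl and Mertk (together the TAM receptors) are receptor tyrosine kinases whose ligands are Gas6 and protein S, the product of Pros1. Mfge8 bridges phosphatidylserine to the integrins alpha v beta 3 and alpha v beta 5, and Itgb5 encodes the beta 5 subunit. Elmo1 acts inside the phagocyte with Dock1 to activate Rac, which drives the actin changes of engulfment. In atherosclerotic plaques, the clearance of dead cells by macrophages limits the growth of the necrotic core.

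The study sequenced RNA of primary mouse macrophages, with 3 libraries from wild-type mice (WT), 3 labelled LysM-DKO and 2 labelled ABCG1KO, all mice being fed a normal diet. The series design names the second group as an epsin double knockout, and the study title places epsins and cholesterol efflux through ABCG1 at its centre. LysM is the older name of Lyz2, whose promoter in Cre lines is active in macrophages, monocytes and neutrophils. The labels give neither the alleles nor the promoter that deletes Abcg1, nor the age, sex or tissue of the mice, and do not say whether animals were pooled. Nothing states that libraries of a group came from separate animals, so p-values measure the spread between these libraries, which may be technical. The sex patterns given below differ within LysM-DKO, so its libraries did not all come from the same animal.

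The libraries held 29567615 to 41888516 counts in genes. Abcg1 was at 345 to 405 CPM (counts scaled to the size of the library) in WT and was down to 60.4 and 73.4 CPM in ABCG1KO. In LysM-DKO it was at 524, 306 and 208 CPM. Epn1 was at 191 to 230 CPM in WT, 155 to 183 CPM in the libraries labelled LysM-DKO, and 182 and 155 CPM in ABCG1KO. Epn2 was at 4.97 to 8.86, 5.67 to 13.2, and 18.6 and 18.5 CPM in the same order. Lyz2 was at 13004 to 15710 CPM in WT, 6177 to 8105 in LysM-DKO, and 14412 and 11237 in ABCG1KO. The LysM-DKO libraries lay below all WT libraries (log2 ratio -1.09, SE 0.200, edgeR adjusted p 0.173, not called). Counts over whole genes cannot show the loss of single exons, so these levels do not check the deletion of the epsins. Xist was at 79.1 to 200 CPM in WT and reached 265 and 254 CPM in LysM-DKO 2 and 3, but had 2, 0 and 0 counts in LysM-DKO 1 and ABCG1KO 1 and 2. The male-specific gene Ddx3y was at 81.6, 94.8 and 92.6 CPM in those last 3 libraries and had at most 2 counts in the others. The sex pattern and the genotype therefore cannot be told apart in ABCG1KO against WT. The other comparisons were unbalanced too, since LysM-DKO 2 and 3 had the female pattern and LysM-DKO 1 the male one. The part of sex in them was not tested. All 9 pan-macrophage markers, Lyz2 among them, were above 10 CPM in every library. Their sum was 18783 to 21574 CPM in WT, 11649 to 14049 in LysM-DKO, and 22734 and 18722 in ABCG1KO. Lyz2 made up most of this sum in every library. The median log2 ratio over the 9 markers in LysM-DKO against WT was -0.12. The part of this sum in the results below was not tested. Csf1r, the receptor of the macrophage growth factor, was at 910 to 1652 CPM in WT, 1085 to 1292 in LysM-DKO, and 3051 and 2655 in ABCG1KO. Adgre1, which encodes F4/80, was at 512 to 767, 425 to 655, and 1347 and 1451 CPM.

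Other cell markers also differed between libraries. The summed level of 13 markers of large peritoneal macrophages was 987 to 2224 CPM in WT, 1385 to 2292 in LysM-DKO, and 19495 and 7847 in ABCG1KO. In these sums Timd4 was at 0 in WT 3, and Timd4, Selp and Alox15 were at 0 in LysM-DKO 1. The sum of 10 monocyte markers was 18.3 to 82.3, 34.7 to 132, and 1340 and 429 CPM, with Ly6c2 at 0 in WT 1, LysM-DKO 1 and LysM-DKO 2, and Chil3 at 0 in LysM-DKO 1. The sum of 10 fibroblast markers, none of them at 0, was 809 to 966 CPM in WT, 708 to 1781 in LysM-DKO, and 167 and 1238 in ABCG1KO. The sums of T cell markers (678 to 777 CPM in WT, 524 to 729 in LysM-DKO, 73.6 and 209.8 in ABCG1KO) and of endothelial markers (91.4 to 117, 63.2 to 89.1, and 17.999 and 32.8 CPM) were lower in ABCG1KO with no overlap. Those of neutrophil markers (96.9 to 150, 84.1 to 94.2, and 371 and 228 CPM) and of mast cell markers (2.46 to 5.91, 0.872 to 3.10, and 56.6 and 13.3 CPM) were higher there with no overlap. The T cell sum was mostly Il7r, with Cd3e at most at 0.512 CPM and at 0 in 5 libraries. The endothelial sum was mostly Vwf, with Cldn5 and Erg at 0 in every WT and LysM-DKO library. Kdr was lower in ABCG1KO, like Vwf. Pecam1 (5.42 and 7.74 CPM, against at most 2.73 elsewhere) and Cdh5 (0.439 and 0.684, against at most 0.375) were higher there. The neutrophil sum was mostly Csf3r, with Retnlg at 0 in every library and S100a9 at 0 in all but ABCG1KO, while the mast cell markers Tpsb2 (15.4 and 3.96 CPM in ABCG1KO) and Cma1 (15.02 and 1.11) were at 0 in WT 3, LysM-DKO 1 and LysM-DKO 3. The sums of dendritic cell, mesothelial, B cell and eosinophil markers reached at most 91.3 CPM in any library. The part of all these sums in the results below was not tested. In bulk RNA, a different share of cells of a type and a different amount of RNA per cell cannot be told apart.

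In the mm10 annotation the 8 genes lay on 5 chromosomes. Mertk (chromosome 2, 128698956 to 128802894, plus strand) and Tyro3 (chromosome 2, 119797733 to 119818104, plus strand) were on the same chromosome, as were Axl (chromosome 7, 25757273 to 25788705, minus strand) and Mfge8 (chromosome 7, 79133768 to 79149060, minus strand). Pros1 (16, 62854307 to 62929346) and Itgb5 (16, 33829665 to 33949338) were on the plus strand of chromosome 16. Gas6 was on the minus strand of chromosome 8 (13465374 to 13494490) and Elmo1 on the plus strand of chromosome 13 (20090596 to 20608353). Mertk, Axl, Tyro3, Pros1 and Mfge8 shared no exonic stretch of 31 bases with another gene. Itgb5 shared 7.86% of such stretches with other genes, Elmo1 3.20% and Gas6 0.278%. The largest partners were, in that order, the gene model Gm38317, the antisense gene Gm32036 and the overlapping gene Tmem255b. The strand setting of the counting is not given in the sources used here, so reads of Elmo1 and Gm32036, or of Gas6 and Tmem255b, were not separable over those stretches.

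The 250 bases before the start of Mfge8, Axl and Pros1 are shown because these were the 3 of the 8 genes that differed between ABCG1KO and WT. They were taken from RefSeq's annotation of GRCm38.p6 at chr7:79149061-79149310 (minus strand), chr7:25788734-25788983 (minus strand) and chr16:62854057-62854306 (plus strand), and are written 5′ to 3′ along the gene. Capitals mark GGGCGG (a GC box, bound by Sp factors) and GAGGAA (the core of the site bound by PU.1 and other ETS factors) on either strand.
Mfge8: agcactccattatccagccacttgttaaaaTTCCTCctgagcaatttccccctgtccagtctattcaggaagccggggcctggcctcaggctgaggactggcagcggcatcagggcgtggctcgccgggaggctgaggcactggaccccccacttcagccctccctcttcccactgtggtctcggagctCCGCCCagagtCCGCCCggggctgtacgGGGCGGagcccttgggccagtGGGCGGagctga
Axl: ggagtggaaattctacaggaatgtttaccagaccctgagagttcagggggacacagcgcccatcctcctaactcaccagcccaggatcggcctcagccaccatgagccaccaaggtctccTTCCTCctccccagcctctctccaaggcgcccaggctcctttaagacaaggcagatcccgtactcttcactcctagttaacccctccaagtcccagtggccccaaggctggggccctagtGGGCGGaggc
Pros1: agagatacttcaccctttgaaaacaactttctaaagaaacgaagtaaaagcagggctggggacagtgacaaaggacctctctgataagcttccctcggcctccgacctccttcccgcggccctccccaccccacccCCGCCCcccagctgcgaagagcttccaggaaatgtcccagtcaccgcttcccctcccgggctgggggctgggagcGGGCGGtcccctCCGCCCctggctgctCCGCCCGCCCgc
The GC box was found 4 times before Mfge8, 1 time before Axl and 5 times before Pros1, where 2 of the 5 overlap. It occurred in 8 of the 9 windows annotated for the 8 genes and in 32.7% of 32851 windows of that length. Those 8 windows held 54.8% to 73.2% G and C, against a median of 52.4% over all windows. The window without it, the second of Elmo1, held 43.6%. The part of base content in the count of GC boxes was not tested. GAGGAA occurred before Mfge8 and Axl, in 2 of the 9 windows, and in 23.3% of all windows. AGGTCA (a motif of nuclear receptors), TGANTCA (the AP-1 site), CCAAT and CACGTG (an E box) were in 0 of the 9 windows, against 14.0%, 6.75%, 33.8% and 6.02% of all. TATAAA was in 1, before Elmo1, against 12.4%. The match of letters is a description and shows no binding.

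Levels of different genes were compared as CPM per kilobase of the principal transcript. In WT, Mfge8 stood highest at 1465 ± 344 CPM per kb (SD, n = 3), above Itgb5 at 199 ± 75.0 and Gas6 at 77.7 ± 7.78, with no overlap between these neighbours. Mertk (40.4 ± 14.9) and Pros1 (32.1 ± 5.67) followed and overlapped each other. Axl was at 21.6 ± 1.92, below every Pros1 and Mertk value, although its highest library (23.4) differed from the lowest of Mertk (23.7) by less than 1 SD. Elmo1 was at 12.03 ± 0.878 and Tyro3 at 0.241 ± 0.0306 CPM per kb, each clear of its neighbour. Among the TAM receptors, Tyro3 was thus the least abundant by far, and it made up 0.351% to 0.450% of the CPM per kb summed over the 3 receptors in WT.

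In LysM-DKO the order was the same from Mfge8 (639 ± 353 CPM per kb, n = 3) through Itgb5 (208 ± 28.4), Gas6 (167 ± 95.6) and Mertk (57.1 ± 17.5). Gas6 in these libraries reached from 87.5 to 273 CPM per kb and overlapped Itgb5. Axl (34.8 ± 9.13) stood above Pros1 (24.5 ± 5.65) there, and their values overlapped. In ABCG1KO Itgb5 was highest at 124 ± 1.95 CPM per kb (n = 2), then Gas6 (83.0 ± 22.5), Pros1 (64.2 ± 9.69) and Axl (50.9 ± 26.4), whose neighbouring ranges overlapped from Gas6 to Axl. Mfge8 stood at 38.02 ± 25.9 CPM per kb, which overlapped Mertk at 37.1 ± 1.67. Its place against Mertk turned around when the length of all exons together was used in place of the principal transcript. Elmo1 (10.9 ± 0.896) and Tyro3 (0.321 ± 0.332) stayed lowest.

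**Figure D1:**
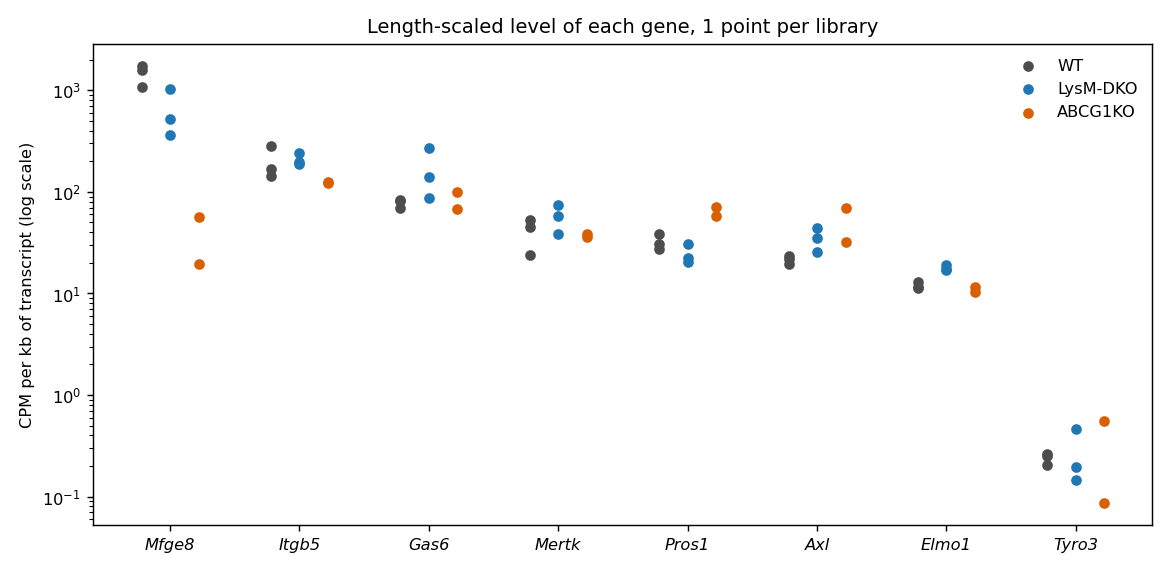
CPM per kb of principal transcript (log scale) of the 8 genes, with 1 point per library and colours for WT (n = 3), LysM-DKO (n = 3) and ABCG1KO (n = 2). Mfge8 is highest in every WT and LysM-DKO library and is at 19.7 and 56.3 CPM per kb in ABCG1KO, while Tyro3 lies below 1 CPM per kb in all 8 libraries.

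The 8 genes did not move as a block. In ABCG1KO against WT, Mfge8 fell and Axl and Pros1 rose past the threshold, an adjusted p under 0.05 over all genes in edgeR's quasi-likelihood test with Benjamini-Hochberg adjustment. These are 3 of 8 genes, where 16.0% of all genes tested were called (7.21% higher and 8.83% lower). A log2 ratio is the fitted log2 fold change between the groups. In LysM-DKO against WT, 0 of the 8 were called by edgeR and 0.0362% of all genes were. At an unadjusted edgeR p under 0.05 there were 4 of 8 (Axl, Elmo1, Gas6, Mfge8) and 11.7% of all genes, and DESeq2 called 1 of 8 (Elmo1) and 2.21% of all genes. In LysM-DKO against ABCG1KO, Mfge8 and Elmo1 were higher and Pros1 lower past the threshold, 3 of 8 genes where 13.4% of all were called (7.76% higher and 5.64% lower). Of all genes, 996 were called higher and 1220 lower in ABCG1KO against WT, and 2074 and 856 with no scaling beyond library size. In LysM-DKO against ABCG1KO the split was 1073 and 780, and 877 and 1018 without that scaling. These 3 comparisons share libraries and are not independent of each other.

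The libraries of LysM-DKO and WT did not overlap for 4 of the 8 genes (Axl, Gas6 and Elmo1 higher, Mfge8 lower), where 21.0% of all genes did not overlap. Those of ABCG1KO and WT did not overlap for 4 of 8 (Axl and Pros1 higher, Mfge8 and Itgb5 lower), and those of LysM-DKO and ABCG1KO for 5 of 8 (Mertk, Mfge8, Itgb5 and Elmo1 higher, Pros1 lower). In each of these 2 comparisons with the group of 2 libraries, 48.2% of all genes did not overlap. The median log2 ratio over the 8 genes was 0.33 in LysM-DKO against WT, -0.01 in ABCG1KO against WT and 0.67 in LysM-DKO against ABCG1KO, and over all genes it was 0.02, 0.01 and 0.03.

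**Figure D2:**
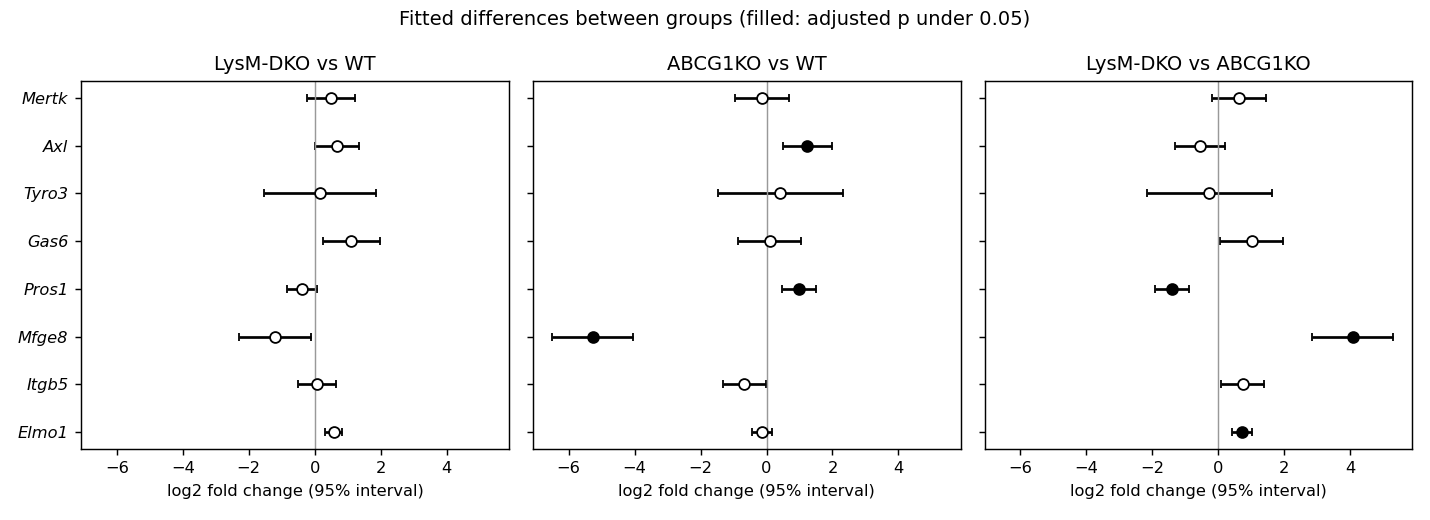
Log2 ratio of each gene in the 3 comparisons, with 95% intervals from the edgeR fit; filled points have an adjusted p under 0.05. Mfge8 reaches -5.27 in ABCG1KO against WT, and no point is filled in LysM-DKO against WT.

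Mertk is the TAM receptor most used by resting macrophages to engulf apoptotic cells. It was at 102, 195 and 225 CPM in WT, 318, 252 and 167 in LysM-DKO, and 154 and 165 in ABCG1KO. The WT values spanned those of ABCG1KO and overlapped those of LysM-DKO, and the highest value was in LysM-DKO 1, the library with the male sex pattern. The log2 ratio in LysM-DKO against WT was 0.50 (SE 0.317, 95% interval -0.23 to 1.23, edgeR adjusted p 0.556), and leaving out each library in turn gave 0.23 (without WT 1) to 0.73 (without WT 3), with 0.26 without LysM-DKO 1. The log2 ratio of ABCG1KO to WT was -0.13 (SE 0.355, 95% interval -0.94 to 0.69, edgeR adjusted p 0.844). That direction turned without WT 3 (0.10) and with no scaling beyond library size (0.11), which moved the median of all genes from 0.01 to 0.25 in this comparison and from 0.02 to 0.17 in LysM-DKO against WT.

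Axl is the TAM receptor that inflammatory stimuli induce and that prefers Gas6 as its ligand. It was at 93.2, 100.01 and 83.7 CPM in WT, 109, 187 and 149 in LysM-DKO, and 138 and 297 in ABCG1KO. Every library of both knockout groups lay above every WT library, and the 2 ABCG1KO libraries were far from each other. Axl rose in ABCG1KO against WT by a log2 ratio of 1.23 (SE 0.327, 2.35-fold, edgeR adjusted p 0.0366).

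The Axl call rested on ABCG1KO 2 and on the number of libraries. Without ABCG1KO 2 the log2 ratio was 0.57 and not past the threshold, and without ABCG1KO 1 it was 1.68. The call was also lost without any of the WT libraries (1.24, 1.295 and 1.17 without WT 1, 2 and 3), without LysM-DKO 3 (1.24) and in a fit of only WT and ABCG1KO (1.23, edgeR adjusted p 0.0523). The sum of fibroblast markers was 167 CPM in ABCG1KO 1 and 1238 in ABCG1KO 2, and its part in the Axl difference was not tested. For LysM-DKO against WT, the Axl log2 ratio was 0.68 (SE 0.292, edgeR adjusted p 0.427).

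Tyro3, the TAM receptor best known from the nervous system, was close to the lower end of what these libraries measure. Its level was 0.821, 1.05 and 1.01 CPM in WT, 0.775, 0.585 and 1.85 in LysM-DKO, and 0.345 and 2.22 in ABCG1KO. These values rest on 11 to 94 counts per library, and the knockout libraries lie on both sides of WT. Its log2 ratio was 0.16 (95% interval -1.55 to 1.86) in LysM-DKO and 0.42 (95% interval -1.48 to 2.32) in ABCG1KO against WT. Both directions turned when a single library was left out, to -0.49 without LysM-DKO 3 and -1.47 without ABCG1KO 2.

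The balance of Axl and Mertk varied within every group. Per kilobase, Axl stood at 0.924, 0.517 and 0.375 of Mertk in WT 1 to 3, at 0.346, 0.749 and 0.899 in LysM-DKO 1 to 3, and at 0.898 and 1.82 in ABCG1KO 1 and 2. ABCG1KO 2 was the single library with more Axl than Mertk.

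Gas6 binds all 3 TAM receptors. It was at 211, 207 and 175 CPM in WT, 361, 696 and 223 in LysM-DKO, and 171 and 252 in ABCG1KO. All LysM-DKO libraries were above WT, with LysM-DKO 3 close to the highest WT value and LysM-DKO 2 far above the rest. The log2 ratio in LysM-DKO against WT was 1.11 (SE 0.373, 95% interval 0.25 to 1.96), with an edgeR adjusted p of 0.354 over all genes. Leaving out LysM-DKO 2 gave 0.55 and leaving out LysM-DKO 3 gave 1.42, and neither fit passed the threshold. For ABCG1KO against WT it was 0.10 (SE 0.417, 95% interval -0.86 to 1.05), and -0.22 without ABCG1KO 2.

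Pros1, the other TAM ligand, showed another order of the groups. It was at 102, 127 and 89.9 CPM in WT, 73.5, 102 and 67.0 in LysM-DKO, and 235 and 189 in ABCG1KO. The ABCG1KO values were the highest of all 8 libraries, and those of LysM-DKO and WT overlapped. Pros1 rose in ABCG1KO against WT by a log2 ratio of 1.00 (SE 0.224, edgeR adjusted p 0.0207). It was lower in LysM-DKO than in ABCG1KO by a log2 ratio of -1.39 (SE 0.225, edgeR adjusted p 0.00709). The first call was lost without WT 1 (0.97), WT 3 (0.89) or ABCG1KO 1 (0.83). LysM-DKO stood at a log2 ratio to WT of -0.39 (SE 0.201, edgeR adjusted p 0.481).

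The ratio of the ligands separated the 3 groups of libraries. Per kilobase, Gas6 stood at 2.69, 2.12 and 2.53 times Pros1 in WT 1 to 3, at 6.36, 8.84 and 4.31 times in LysM-DKO 1 to 3, and at 0.945 and 1.72 times in ABCG1KO 1 and 2. No library of a group overlapped another group in this ratio, which was computed after the levels of both genes were known and is given without a test. How many other gene pairs separate the groups in this way was not computed. Of single genes, 21.0% did not overlap in LysM-DKO against WT and 48.2% in each comparison with ABCG1KO.

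**Figure D3:**
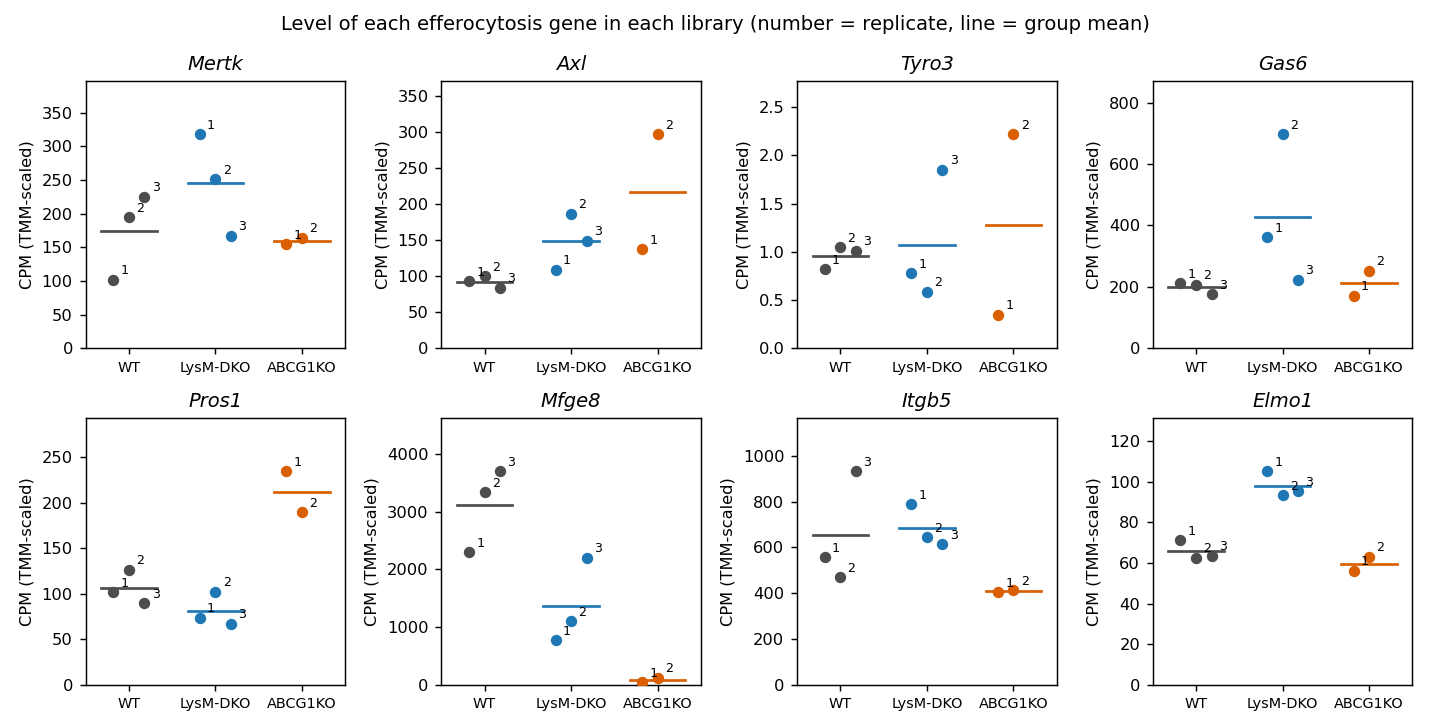
CPM (scaled with TMM factors) of the 8 genes in each library of WT (n = 3), LysM-DKO (n = 3) and ABCG1KO (n = 2); numbers give the replicate and lines the group mean. Mfge8 reaches 119.7 CPM at most in ABCG1KO and is at 771 CPM or more elsewhere, and Elmo1 is at 93.3 CPM or more in LysM-DKO and at 71.2 or less elsewhere.

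Mfge8 had the largest difference of the 8 genes. It was at 2295, 3341 and 3701 CPM in WT, 771, 1098 and 2201 in LysM-DKO, and 41.9 and 119.7 in ABCG1KO. The 3 groups did not overlap, although LysM-DKO 3 came within a small distance of WT 1. The lowest values were in ABCG1KO 1, ABCG1KO 2 and LysM-DKO 1, the libraries with the male sex pattern, whose part in the difference was not tested. Between WT and ABCG1KO, Mfge8 fell by 5.27 on the log2 scale (SE 0.533, edgeR adjusted p 0.00249), to a level 38.5-fold lower. Of the 13821 genes tested, 229 had a larger log2 ratio in either direction. Its fall was called in every alternative fit, with log2 ratios from -6.22 without ABCG1KO 2 to -4.71 without ABCG1KO 1.

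Mfge8 had a log2 ratio of LysM-DKO to WT of -1.20 (SE 0.476, 95% interval -2.29 to -0.10), which was not called (edgeR adjusted p 0.409). Leaving out LysM-DKO 1 gave -0.93 and leaving out LysM-DKO 3 gave -1.73, again not past the threshold. Mfge8 was higher in LysM-DKO than in ABCG1KO by a log2 ratio of 4.07 (SE 0.533, edgeR adjusted p 0.00719), and that call held without each library in turn, at 3.49 to 5.02. Both calls lie between libraries that also differ in the sum of large peritoneal macrophage markers given above, whose part in them was not tested.

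Itgb5, the beta 5 integrin subunit, was at 557, 469 and 933 CPM in WT, 788, 645 and 614 in LysM-DKO, and 404 and 413 in ABCG1KO. The ABCG1KO libraries were the lowest of all 8 and close together, while WT 3 stood well above WT 1 and 2. The log2 ratio in ABCG1KO against WT was -0.68 (SE 0.283, 95% interval -1.33 to -0.03, edgeR adjusted p 0.150) and was not called. It was -0.33 without WT 3. In LysM-DKO against ABCG1KO it was 0.74 (SE 0.283, edgeR adjusted p 0.126), and was called once WT 3 was left out (0.74, edgeR adjusted p 0.0452). The log2 ratio of LysM-DKO to WT was 0.06 (SE 0.253), and its direction turned without WT 1, WT 2 or LysM-DKO 1. The partner subunit Itgav was at 91.7 to 116 CPM in WT, 114 to 172 in LysM-DKO, and 169 and 158 in ABCG1KO.

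Elmo1 had the smallest coefficient of variation of the 8 genes within WT (7.30%) and within LysM-DKO (6.52%). It was at 71.2, 62.5 and 63.4 CPM in WT, 105, 93.3 and 95.2 in LysM-DKO, and 56.1 and 63.0 in ABCG1KO. The LysM-DKO libraries lay above all 5 others, and WT and ABCG1KO overlapped. The log2 ratio of LysM-DKO to WT was 0.57 (SE 0.115, 95% interval 0.31 to 0.84), and the calls differed by tool. The edgeR adjusted p was 0.213, while DESeq2 gave 0.55 with an adjusted p of 0.0108. Among all genes, 62 had a smaller edgeR p in that comparison. Against ABCG1KO, Elmo1 was higher in LysM-DKO by a log2 ratio of 0.72 (SE 0.129, edgeR adjusted p 0.0120), and the call was lost without LysM-DKO 1 (0.64) or ABCG1KO 1 (0.62). For ABCG1KO against WT it was -0.14 (SE 0.129, edgeR adjusted p 0.495), and 0.10 with no scaling beyond library size.

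**Figure D4:**
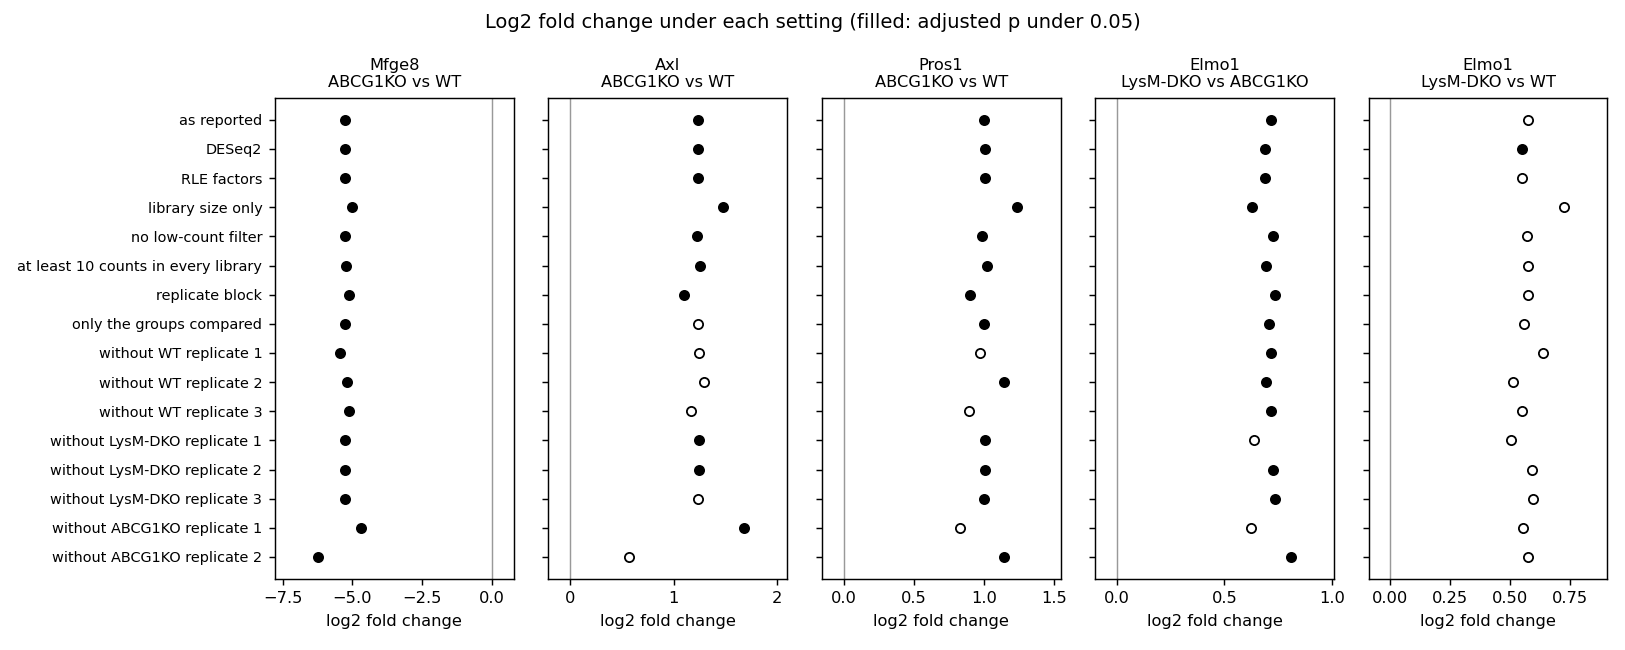
Log2 ratio of Mfge8, Axl and Pros1 in ABCG1KO against WT and of Elmo1 in the comparisons of LysM-DKO with ABCG1KO and with WT, under each alternative setting; filled points have an adjusted p under 0.05. Mfge8 is filled in every setting, and Axl ranges from 0.57 to 1.68.

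The wider efferocytosis pathway was read from 10 lists that hold 109 genes beside these 8, of which 103 were tested. In ABCG1KO against WT, 29 of the 103 were called (20 higher and 9 lower, 28.2%, where 16.0% of all genes were called), with a median log2 ratio of 0.17 against 0.01 over all genes. The count rested on the libraries, with 13 called without ABCG1KO 1 and 18 without WT 1, and DESeq2 called 46, where it called 23.5% of all genes. In LysM-DKO against WT, edgeR called 0 of the 103 (21 at an unadjusted p under 0.05, where 11.7% of all genes were). DESeq2 called 6 of them (3 higher, 3 lower), where it called 2.21% of all genes. The median log2 ratio from edgeR was -0.02. Between LysM-DKO and ABCG1KO, 19 of the 103 were called (5 higher and 14 lower, 18.4%), where 13.4% of all genes were. A fit of only these groups called 11. Of the 32 listed genes picked in each of these comparisons with WT, 0 changed direction in any alternative fit. They were picked for the smallest adjusted p in the same comparison, so the choice itself favoured stable directions. In ABCG1KO against WT, Cd300lb (-0.68), Elmo2 (-0.49), Adam10 (0.62), P2ry2 (0.49) and Atg16l1 (0.38) were picked but not called, and are not described below. Not all picks in LysM-DKO against WT are described.

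Bridging proteins other than the TAM ligands, Mfge8 included, gave 2 higher and 3 lower of 9 tested in ABCG1KO against WT (55.6%, where 16.0% of all genes were called). Thbs1 (thrombospondin, a bridge to the vitronectin receptor and Cd36) rose from 127, 264 and 208 CPM in WT to 2314 and 2285 in ABCG1KO, a log2 ratio of 3.53 (SE 0.491, edgeR adjusted p 0.00400). C1qa, a chain of complement C1q that opsonises apoptotic cells, rose from 364, 514 and 269 to 1691 and 1809 CPM (2.20, edgeR adjusted p 0.00870). Lgals3, which encodes galectin-3, a ligand of Mertk, fell from 8043, 6288 and 6044 to 1364 and 1929 CPM (-2.04, edgeR adjusted p 0.00357). These calls held in every alternative fit. Anxa1, a phosphatidylserine-binding annexin, fell from 2336 ± 335 (SD, n = 3) to 549 ± 227 CPM (n = 2), by 2.09 on the log2 scale, and lost the call without ABCG1KO 1.

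Among 16 tested receptors for apoptotic cells outside the TAM family, 1 rose and 2 fell in ABCG1KO against WT (18.8% called, where 16.0% of all genes were). Timd4, the phosphatidylserine receptor TIM-4, was at 0.322, 0.856 and 0 CPM in WT and at 37.4 and 11.9 in ABCG1KO. It is also among the markers of large peritoneal macrophages, and its call was lost in 8 of the alternative fits. Itgb3, the beta 3 subunit that forms the other Mfge8 receptor with alpha v, fell from 47.6, 24.1 and 64.3 CPM to 3.57 and 6.32 (-3.19, edgeR adjusted p 0.00941). Scarb1, the scavenger receptor SR-BI, fell from 111 ± 10.5 to 59.7 ± 4.63 CPM (-0.89, edgeR adjusted p 0.0151). Itgb3 lost its call without ABCG1KO 1, and Scarb1 without ABCG1KO 1 or 2.

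Of 22 tested genes of engulfment signalling, Elmo1 included, 3 rose and none fell, a share of 13.6% that lies below the 16.0% of all genes. Vav1, an exchange factor of Rac, rose from 168 ± 11.2 to 291 ± 7.34 CPM (0.79, edgeR adjusted p 0.00680) and was called in every alternative. Abl1, a kinase, and Dock1, the partner of Elmo1, had log2 ratios of 0.69 and 0.59 and lost the call in 7 and 10 alternatives. Of 9 genes of TAM shedding and feedback, 3 rose and none fell (33.3%). They were Ifnar1 (1.15), the interferon receptor chain with which TAM receptors signal, Socs3 (3.07), a TAM-induced inhibitor of cytokine signalling, and Adam17 (0.74), the protease that sheds Mertk. Ifnar1 was called in every alternative. Socs3 lost the call without WT 1 or ABCG1KO 1, and Adam17 in 4 alternatives.

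Receptors for find-me and do-not-eat-me signals gave 2 higher and 1 lower of 12 (25.0%). P2ry12, a nucleotide receptor, rose from 2.40, 3.34 and 1.01 CPM to 42.9 and 32.03 (4.06, edgeR adjusted p 0.00543). Gpr132, a receptor for lysophospholipids, rose from 6.99 ± 2.14 to 25.6 ± 8.36 CPM (1.87, edgeR adjusted p 0.00790) and lost the call without ABCG1KO 1. Lilrb4a fell by 1.53 on the log2 scale, but its exons share 56.1% of stretches of 31 bases with other genes and its level is uncertain, and its call was lost without ABCG1KO 2 (-1.304). Phagosome maturation gave 1 higher and 2 lower of 14 (21.4%, where 16.0% of all genes were called). Dnase2a, which digests engulfed DNA, fell by 1.21, with 30.0% of its sequence shared. Map1lc3b (-0.64) and Becn1 (0.48, with 40.0% shared) lost their calls in 10 and 6 alternatives.

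The nuclear receptors and their targets gave 5 higher and 1 lower of 13 (46.2%, where 16.0% of all genes were called). Rxra, the partner of LXR and PPAR receptors, rose from 166 ± 14.8 to 322 ± 24.9 CPM (0.96, edgeR adjusted p 0.00450), and its call held in all alternatives. Pparg fell from 106, 74.2 and 91.4 CPM to 25.6 and 28.6 (-1.74, edgeR adjusted p 0.0154), and was not called without either ABCG1KO library. Nr4a1 (4.87) and Ppard (0.61) rose, the first of which is also a monocyte marker, and they lost their calls in 5 and 7 alternatives. The other 2 that rose, Klf2 and Ppargc1b, are named because their call was seen. Of 11 genes of the metabolism that follows engulfment, 3 rose and 1 fell (36.4%, against the same 16.0% of all genes). Dio2, a thyroid hormone deiodinase, fell from 184, 205 and 121 CPM to 2.10 and 1.20 (-6.70, edgeR adjusted p 3.82e-05). Slc7a11, a cystine transporter (2.31), Hif1a (1.37) and Ucp2, a mitochondrial carrier (0.84), rose, and the first 2 were called in every alternative. Ucp2 lost its call without WT 2 or ABCG1KO 1.

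**Figure D5:**
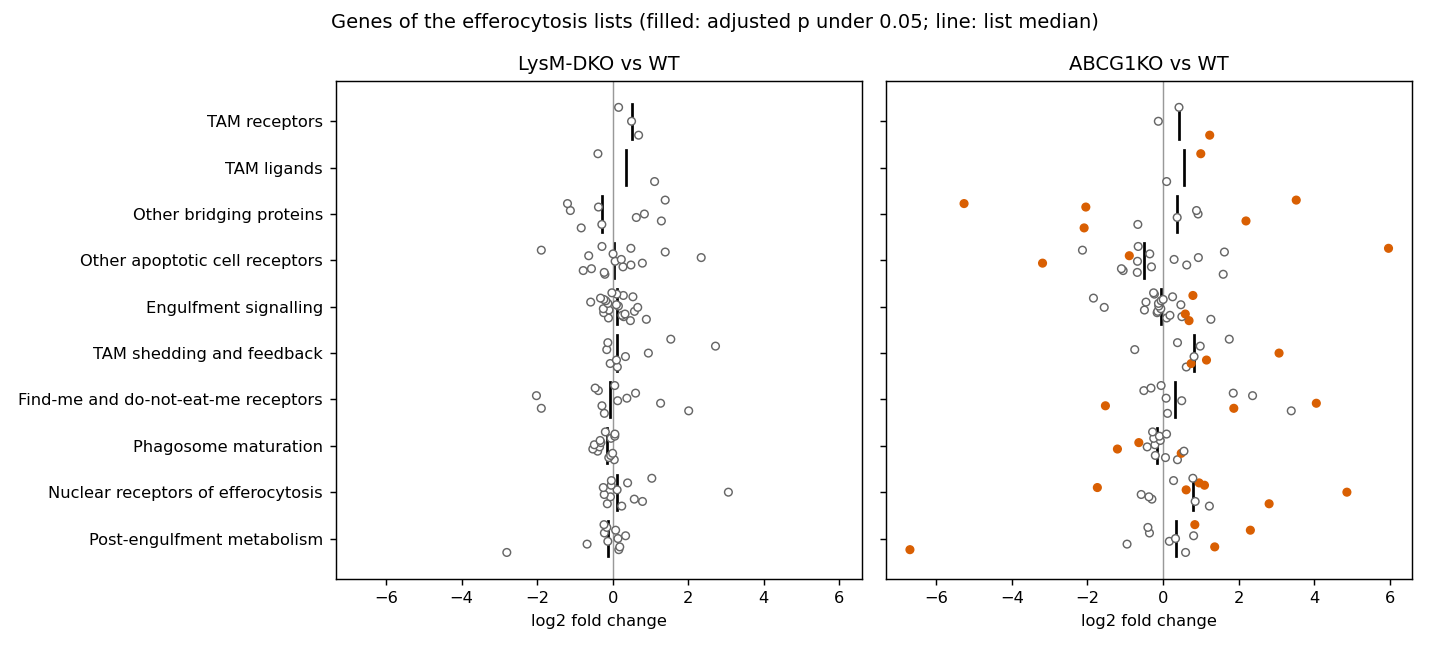
Log2 ratio of every tested gene of the 10 lists in LysM-DKO and in ABCG1KO against WT; filled points have an adjusted p under 0.05 and the black line is the list median. No point is filled in LysM-DKO, and calls of both directions stand in 6 of the lists in ABCG1KO.

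In LysM-DKO against WT, the smallest edgeR adjusted p among the listed genes was 0.154. Gpr132 was at 7.83, 8.59 and 4.55 CPM in WT and at 1.67, 1.88 and 2.10 in LysM-DKO, a log2 ratio of -1.89 (SE 0.297). Scarb1 was at 123, 105 and 105 CPM in WT and 69.3, 59.1 and 85.6 in LysM-DKO (-0.64, edgeR adjusted p 0.289). C1qa was at 987, 1296 and 515 CPM in LysM-DKO (1.29, edgeR adjusted p 0.342), with LysM-DKO 3 just above the highest WT value. The lysosomal membrane proteins Lamp1 (-0.35) and Lamp2 (-0.49) and the lysosomal channel Mcoln1 (-0.33) were lower with no overlap and edgeR adjusted p values of 0.425, 0.354 and 0.355. Abl1 (0.47), Vav1 (0.28) and Rxra (0.39) were higher with no overlap, again without a call. Of all genes, 21.0% did not overlap in this comparison, and these listed genes were picked for a small p. Anxa1 (-0.83), Nr4a1 (3.06) and Megf10 (2.34, at most 1.55 CPM) were picked too and did not overlap. Other picks overlapped, some with larger ratios, such as Timp3 (2.72), Cx3cr1 (2.01), Stab1 (1.39), Thbs1 (1.39), Arg1 (-2.80) and Pecam1 (-2.02). None of them was called.

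For each of the 8 genes, the 2 genes whose log2(CPM + 2) correlated most closely with it over the 8 libraries were looked up among 8504 genes with a mean of at least 10 CPM. The libraries fall into 3 groups, so a shared difference between groups gives a high correlation by itself, and no p is given. Mertk was closest to Ccnt1 and Lyst (Pearson r 0.98 for both) and Axl to Zcchc14 (0.97) and Cdyl2 (0.92). Tyro3 was closest to Prep (0.96) and Serpinh1 (0.95), and Gas6 to Zmat3 (0.92) and Ssx2ip (0.91). Pros1 was closest to Fcna (0.98), which had mean levels of 21.1, 13.8 and 327 CPM in WT, LysM-DKO and ABCG1KO, and to Cpsf4 (0.98). Mfge8 was closest to Npy (0.99), at 103, 57.8 and 4.62 CPM, and Cdca7l (0.98). Itgb5 was closest to Sorl1 and Haus2 (0.97 for both), and Elmo1 to Sp2 (0.99) and Emp1 (0.97).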

How the data were processed

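The deposited values were raw read counts per gene symbol, 1 file for each library, made by the authors with htseq-count as its 5 special lines in every file show. Per the submitters' processing notes, the build was mm10 and the tools included STAR 2.7.9a, TopHat, HTSeq 0.11.2, DESeq2 1.30.1 and limma, with no role given for each. The annotation and the strand setting are not given in the sources used here. The special lines, 7.85% to 9.98% of the reads counted in WT and LysM-DKO and 21.4% and 17.5% in ABCG1KO, stayed out of library sizes and tests.

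Counts were analysed with edgeR 4.0.16 in R 4.3.3 (filterByExpr, TMM factors, robust quasi-likelihood fit of all 8 libraries with a term for each group). Residual degrees of freedom were 5 and prior ones 3.33 (median), with a biological coefficient of variation of 36.1%. Calls needed a Benjamini-Hochberg adjusted p under 0.05 over all 13821 genes. CPM are counts scaled to the TMM-adjusted library size, ± is the SD over libraries, and SE and 95% intervals come from the fit. A count of 0 allows up to 3 counts, or 0.0708 to 0.0941 CPM, for counting error only. Libraries within a group differed by more than sampling noise (chi-square per degree of freedom 88.1 to 159).

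The genes, lists and tests were chosen with earlier results of these data known. The rule for naming took the 8 genes, from each list up to 4 others with the smallest adjusted p in each comparison with WT, Csf1r, Adgre1, and the 2 genes most alike each member. Epn1, Epn2, Lyz2, Abcg1, Xist, Ddx3y, Itgav and the markers are named outside that rule. Alternatives were DESeq2 1.42.0, RLE factors, library size only, other filters on low counts, only the groups compared, a replicate block and each library left out. Positions and transcript lengths came from the GENCODE annotation of mm10 and promoters from RefSeq.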

Additional observations from a re-analysis of the deposited data

Results flagged for a closer look

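A signal outside the counted genes was higher in both ABCG1KO libraries than in WT. Of all reads counted, 6.93% in ABCG1KO 1 and 6.74% in ABCG1KO 2 had more than 1 alignment, against 2.83% to 3.00% in WT and 2.65% to 3.01% in LysM-DKO. Reads in no annotated gene were 13.8% in ABCG1KO 1 and 10.2% in ABCG1KO 2, against 4.26% to 5.88% in WT and 4.33% to 6.07% in LysM-DKO. The part of this difference in the calls of Mfge8, Axl and Pros1 was not tested. Mfge8, Axl and Pros1 share no stretch of 31 bases with annotated transcripts of other genes. The rest of the genome was not compared, so this does not decide that part.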

How the results depend on the processing

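Of the alternative fits of the log2 fold changes of the 8 genes, 334 kept direction and call, 11 lost a call, 2 gained one and 13 turned the direction. No turned value was past the threshold in either fit. For LysM-DKO against WT, Itgb5 turned to -0.04 without WT 1, -0.15 without WT 2 and -0.07 without LysM-DKO 1 (up to 0.41 without WT 3), and Tyro3 to -0.49 without LysM-DKO 3 (up to 0.44). For ABCG1KO against WT, Mertk turned to 0.11 and Elmo1 to 0.10 with library size only. Mertk ranged from -0.40 to 0.10 with a library left out, Gas6 from -0.22 to 0.34 and Tyro3 from -1.47 to 1.20, and Gas6 was at -0.20 with the replicate block. For LysM-DKO against ABCG1KO, Tyro3 ranged from -1.06 to 1.63, with 0.00 without LysM-DKO 2, and Axl from -1.02 to 0.11. The cause was not tested. Genes called in LysM-DKO against WT numbered 5, and 299 with DESeq2 (111 higher, 188 lower), 8 with only the groups compared, 3 with at least 10 counts in every library and 0 to 8 with a library left out. DESeq2 called 1 of the 8 genes there, and 0 were called with any library left out. In ABCG1KO against WT, 2216 genes were called, and 853 to 2090 with a library left out, the fewest without ABCG1KO 1. Of the 8 genes, 1 to 3 were then called. In LysM-DKO against ABCG1KO, 1853 genes were called, 2982 with DESeq2, 948 with only the groups compared and 561 to 1960 with a library left out, and 2 to 4 of the 8 genes were then called. No consistent pairing by replicate number was seen, since same-numbered deviations correlated at -0.12 to 0.50 and not every library was closest to its own number. WT 2 and LysM-DKO 2 gave the 0.50, the highest of all pairs. The 2 ABCG1KO libraries deviate from their mean as mirror images, so the check cannot settle pairing. The replicate block gave 0, 1456 and 1024 called genes in these 3 comparisons and changed no call among the 8 genes. Where ABCG1KO kept 1 library, that library was assumed to vary like the other groups. In the lists beyond the 8 genes, 29 were called in ABCG1KO against WT (13 without ABCG1KO 1) and 19 in LysM-DKO against ABCG1KO (5 without ABCG1KO 1), alternatives added after seeing the data. Depth limits Tyro3 most, at 11 to 94 counts per library.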
